A study of Homo sapiens with 11 samples.

Results

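In 92-1 cells under DMSO, 74254 of the 142667 TFAP2A peaks (52.0%) shared no base with a peak of SOX10 or of MITF. These sites, called TFAP2A-only sites here, were chosen by the presence of a peak in the DMSO TFAP2A list and its absence from the DMSO SOX10 and MITF lists, so their lack of both factors is the rule and not a result. The other 68413 TFAP2A peaks overlapped SOX10, MITF or both. The study profiled 92-1, an established uveal melanoma cell line (a tumour of the pigmented layer of the eye), by chromatin immunoprecipitation sequencing (ChIP-seq) with 5 antibodies, against TFAP2A, SOX10, MITF, SMARCA4 and acetylated histone H3 lysine 27 (H3K27ac). One group was given DMSO, the solvent, for 4 h and the other FHT-1015, a dual inhibitor of SMARCA4 and SMARCA2, for 4 h. Each antibody had 1 library per condition, and the series also held 1 DMSO input library, whose reads were not used here. The labels name no genetic change in either group, and the question the design names is how the inhibitor alters binding across the genome.

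TFAP2A belongs to the AP-2 family of transcription factors, which bind GC-rich DNA as dimers and act in neural crest, skin and pigment cells. SOX10 and MITF are the lineage factors of pigment cells, with which AP-2 factors share many enhancers. SMARCA4 (BRG1) and SMARCA2 are the alternative ATPase motors of the BAF complexes, which slide and evict nucleosomes and so open enhancers and promoters. H3K27ac is laid down by the acetyltransferases EP300 and CREBBP at active promoters and enhancers.

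As a check of the labelled cell type, 16 of 17 pigment cell genes and 11 of 12 neural crest transcription factors had a DMSO H3K27ac peak within 1 kb of a start, against 1 of 15 epithelial genes, while all 10 housekeeping genes had one. With 1 library per antibody and condition no difference below has a replicate check, no test was made, and shares carry 95% Wilson intervals that cover counting error over peaks only. A peak with fewer reads cannot tell fewer bound cells from weaker binding in each cell. The titles name the TFAP2A target as AP-2, and whether the antibody also binds related AP-2 proteins was not tested.

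The sequences of 6 promoters show what the sites at gene starts look like. They are the strongest retained and lost TFAP2A-only sites whose summit lay in the 250 bases upstream of a start and outside every annotated gene, with retained meaning that an FHT-1015 TFAP2A peak shared at least 1 base with the DMSO peak and lost meaning that none did. MSX1 was named by rule and the other 5 were chosen after their values were seen. Sequences are from RefSeq, build GRCh38.p14, and run 5′ to 3′ along the gene, ending at the base before the start. Capitals mark matches to the AP-2 motif GCCNNNGGC, which reads the same on both strands.
MSX1 (retained, + strand, chr4:4859415-4859664): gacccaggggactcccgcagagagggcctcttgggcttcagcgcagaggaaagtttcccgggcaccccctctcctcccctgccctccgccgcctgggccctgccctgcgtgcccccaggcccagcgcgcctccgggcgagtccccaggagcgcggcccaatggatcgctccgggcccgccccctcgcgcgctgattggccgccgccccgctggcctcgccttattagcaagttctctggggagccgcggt
ST6GALNAC4 (retained, - strand, chr9:127917042-127917291): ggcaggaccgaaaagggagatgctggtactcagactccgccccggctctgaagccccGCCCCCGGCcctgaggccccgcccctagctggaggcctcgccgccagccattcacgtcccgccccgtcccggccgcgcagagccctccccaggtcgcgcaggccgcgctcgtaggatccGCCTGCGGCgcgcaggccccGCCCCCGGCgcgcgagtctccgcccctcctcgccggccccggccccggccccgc
ZCCHC24 (retained, - strand, chr10:79445625-79445874): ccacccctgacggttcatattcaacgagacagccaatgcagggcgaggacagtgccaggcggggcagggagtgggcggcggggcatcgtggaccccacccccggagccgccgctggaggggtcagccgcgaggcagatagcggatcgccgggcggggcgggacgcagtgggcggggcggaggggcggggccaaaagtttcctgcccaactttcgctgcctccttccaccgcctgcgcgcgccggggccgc
NEURL3 (retained, - strand, chr2:96508110-96508359): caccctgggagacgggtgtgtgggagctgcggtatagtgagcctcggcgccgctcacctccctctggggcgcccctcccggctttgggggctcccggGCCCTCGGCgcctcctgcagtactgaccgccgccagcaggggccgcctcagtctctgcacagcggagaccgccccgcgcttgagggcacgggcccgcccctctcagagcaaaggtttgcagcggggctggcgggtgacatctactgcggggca
SDS (lost, - strand, chr12:113403888-113404137): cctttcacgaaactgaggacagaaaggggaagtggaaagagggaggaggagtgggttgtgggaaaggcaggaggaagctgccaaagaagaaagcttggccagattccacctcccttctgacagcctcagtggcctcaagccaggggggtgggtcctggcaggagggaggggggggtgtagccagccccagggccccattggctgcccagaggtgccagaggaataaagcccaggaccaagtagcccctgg
SLC11A2 (lost, - strand, chr12:51028887-51029136): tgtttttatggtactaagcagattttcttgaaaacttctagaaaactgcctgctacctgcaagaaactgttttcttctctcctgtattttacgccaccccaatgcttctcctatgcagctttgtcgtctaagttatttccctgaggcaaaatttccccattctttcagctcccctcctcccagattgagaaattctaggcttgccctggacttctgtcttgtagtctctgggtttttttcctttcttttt

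GCCNNNGGC, the only form marked and counted in these windows, was in 2 of these 6. ST6GALNAC4, a sialyltransferase gene, held 3 matches, whose first bases lay 193, 74 and 54 bases before the start, and the TFAP2A summit lay 182 bases before it. FHT-1015 reads are those at the summit of the strongest FHT-1015 peak over the site, which need not lie at the DMSO summit. The ST6GALNAC4 site had a −log10 p of 143 and 122 reads at its summit in DMSO, and 77.4 and 77 reads in FHT-1015. NEURL3, which encodes a ubiquitin ligase, held 1 match, with 96 summit reads in DMSO and 73 in FHT-1015. The MSX1 window held no GCCNNNGGC, although its site had the highest −log10 p of the 6, 160. SDS, the liver enzyme serine dehydratase, and SLC11A2, an iron transporter, had 28 and 27 summit reads in DMSO and no FHT-1015 peak. The form with a longer spacer, GCCNNNNGGC, is not in capitals above. It occurs in the MSX1 window and in the lost SDS window, so neither lacks both forms.

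Over all promoter windows that run from 250 bases before a start to 50 after it, GCCNNNGGC occurred in 257 of the 645 with a TFAP2A-only summit (39.8%, 36.1 to 43.7) and in 6032 of all 22078 windows (27.3%). Windows with the summit of another TFAP2A peak held it in 37.7%, close to the TFAP2A-only share, and windows with no TFAP2A summit in 23.4%. The windows also differed in base composition, with a median GC content of 66.0%, 66.0% and 60.3% in the same order, and its part in these shares was not tested. The motif with a 4-base spacer, GCCNNNNGGC, gave 38.9%, 35.5% and 21.4%, and 9.76% of all windows held both motifs. Within the TFAP2A-only windows the 3-base-spacer motif was found in 41.3% of the 445 retained and 36.5% of the 200 lost, whose intervals (36.9 to 46.0 and 30.1 to 43.4) overlap. The 4-base-spacer motif was found in 42.2% (37.7 to 46.9) of the retained and 31.5% (25.5 to 38.2) of the lost windows. Median GC content was 67.7% in the retained and 61.3% in the lost windows, and its part in these shares was not tested. Of 356 matches, 135 (37.9%) had their centre within 50 bp of the TFAP2A summit, a span that holds 31.0% of the window positions. Windows of nearby starts of the same gene can overlap, as at COL5A1. Some summits and matches therefore count more than once, and the intervals take the windows as separate.

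**Figure D1:**
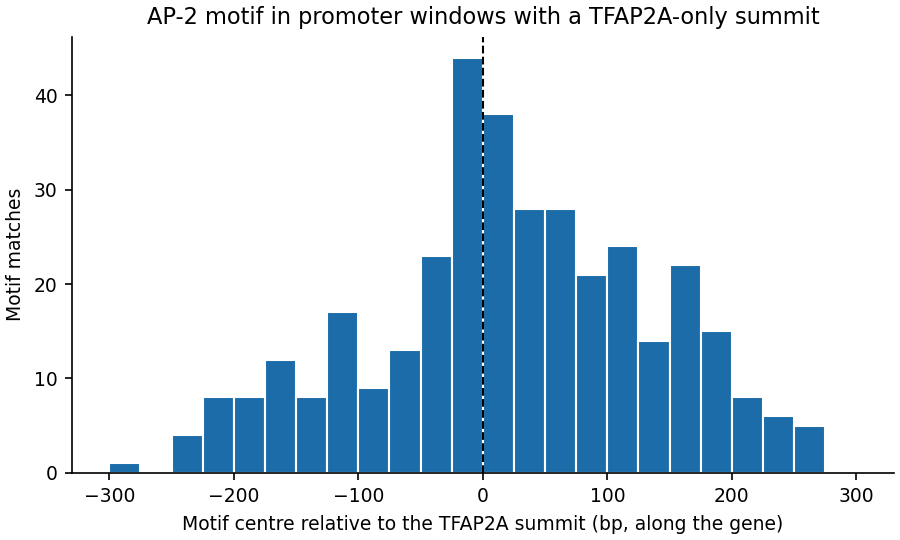
Number of GCCNNNGGC matches (vertical axis) by the distance of the motif centre from the TFAP2A summit in bp along the gene (horizontal axis), over the 645 promoter windows with a TFAP2A-only summit. The dashed line is the summit, and 37.9% of the 356 matches lie within 50 bp of it. Matches in overlapping windows of the same gene count more than once.

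Most TFAP2A-only sites carried neither SMARCA4 nor H3K27ac in DMSO. Of the 74254 sites, 63082 (85.0%) overlapped no peak of either, 5277 (7.11%) overlapped SMARCA4 only, 2967 (4.00%) H3K27ac only and 2928 (3.94%) both. Among TFAP2A peaks with SOX10 or MITF both together were the most frequent, on 48.6%, and neither was found on 23.5%. The TFAP2A-only sites were also weaker: their median −log10 p was 6.38 against 19.7, their median fold over background 4.04 against 6.95, their median width 268 bp against 441 bp and their median summit 13 reads against 33. Within them, the SMARCA4-only class had the highest median −log10 p, 9.99, and the class with neither the lowest, 6.03. The share with a −log10 p of at least 10 was 49.7% in the SMARCA4-only class, 39.6% with both, 30.3% with H3K27ac only and 23.9% with neither.

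Sites on the 2 sides of the rule were close in strength. The 1384 members with a SOX10 or MITF peak within 100 bp had a median −log10 p of 6.65 and were retained in 51.5%, and the 1881 TFAP2A peaks that shared 1 to 100 bases with such a peak, just outside the rule, had a median of 5.59 and were retained in 45.1%. A SOX10 or MITF peak lay within 1 kb of 13600 members.

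After 4 h of FHT-1015, 35996 TFAP2A-only sites (48.5%, 48.1 to 48.8) still had a TFAP2A peak and 38258 did not. Over all DMSO TFAP2A peaks 54.9% were retained, and of those with SOX10 or MITF 61.9% were. The difference, TFAP2A-only minus other, was -13.4 percentage points, but it turned round when sites of like strength were compared. Within deciles of the DMSO list by −log10 p, TFAP2A-only sites were retained more often in 10 of 10, by 6.05 points on average. In the weakest decile the shares were 28.8% (28.0 to 29.7) and 28.1% (26.6 to 29.7), in the seventh 65.5% and 58.7%, and in the eighth 73.8% and 64.9%. In the strongest they were 92.0% (88.9 to 94.3) and 89.7% (89.2 to 90.2). The intervals overlap in the weakest and the strongest decile. TFAP2A-only sites made up 77.7% of the weakest decile and 2.71% (387 sites) of the strongest. With only peaks of −log10 p of at least 10, the crude difference came to -4.15 points.

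**Figure D2:**
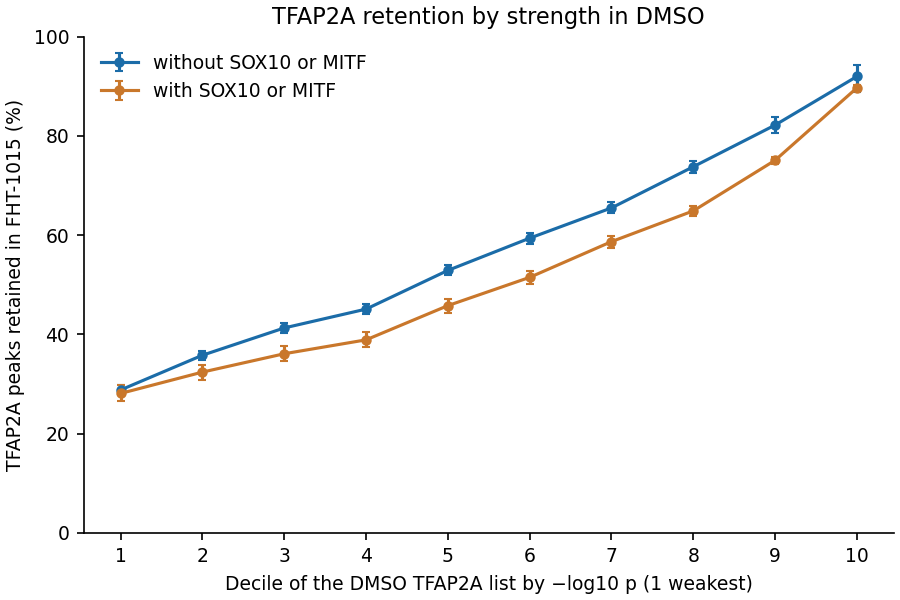
Percentage of DMSO TFAP2A peaks with a TFAP2A peak in FHT-1015 (vertical axis) by decile of the DMSO TFAP2A list, 1 being the weakest by −log10 p (horizontal axis), for TFAP2A-only sites and for peaks with SOX10 or MITF, with 95% Wilson intervals as bars. Retention climbs with strength in both sets, from 28.8% to 92.0% for TFAP2A-only sites, which lie above the other peaks in each decile.

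Retention differed by what else lay on the site in DMSO. It was 46.8% (46.4 to 47.2) with neither, 54.2% (52.4 to 56.0) with H3K27ac only, 57.6% (56.3 to 59.0) with SMARCA4 only and 61.9% (60.1 to 63.7) with both, beside the 54.9% over all TFAP2A peaks. Retention was higher by 12.0 points (10.9 to 13.1) where SMARCA4 was present than where it was absent, and by 10.4 (9.08 to 11.7) for H3K27ac. At like strength the SMARCA4 difference was 3.99 points. At distal sites of like strength it was -0.790, a small value of the other sign for which no interval was taken. Above a −log10 p of 10 the SMARCA4 difference was 5.25, and with summits within 200 bp of each other 6.85. The H3K27ac difference was 6.99 points at like strength, 2.55 at distal sites of like strength, 3.68 when the summits had to lie within 200 bp, and 18.4 among sites chosen by the MITF list alone.

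The reads at the summit told the classes apart in another way. Among retained sites the median ratio of FHT-1015 to DMSO reads, divided by a depth ratio of 0.960 inferred from the peak values, was 1.04 with neither, with H3K27ac only and with both, but 0.868 with SMARCA4 only. Without that correction, the median reads of retained sites were 14 in both libraries with neither, 19 in both with H3K27ac only, 21 in both with both, and 21 in DMSO and 17 in FHT-1015 with SMARCA4 only. In that class 18.9% of retained sites kept at most 50% of their reads, against 6.42% with neither, 5.91% with H3K27ac only and 9.76% with both. Peaks with SOX10 or MITF in the SMARCA4-only class had a median ratio of 0.521, and those retained were deeper, with a median of 45 reads in DMSO. A retained site had to pass the FHT-1015 caller, so these ratios leave out the sites that were lost. A site with few reads in DMSO also has less room to fall and still be called. The ratios and shares of retained sites were not compared at like DMSO reads.

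To count lost sites and read loss together, the 18188 distal TFAP2A-only sites with a −log10 p of at least 10 were followed. Of these, 47.1% (46.3 to 47.8) were lost or kept at most 50% of their reads. The share was 58.3% (56.2 to 60.3) with SMARCA4 only, 45.7% (44.9 to 46.6) with neither, 44.4% (41.0 to 47.9) with both and 41.5% (37.9 to 45.1) with H3K27ac only. At promoters of the same cut the share was 17.1% (13.7 to 21.2) with SMARCA4 only and 23.4% (20.4 to 26.8) with neither, with intervals that overlap. At distal peaks of the same cut with SOX10 or MITF it was 66.2% in all and 79.1% with SMARCA4 only, and these peaks were deeper, with a median of 48 reads against 24. Among distal TFAP2A-only sites without H3K27ac and of any strength, those with SMARCA4 exceeded those without by 5.24 points within deciles, and were higher in 7 of 10. With promoters included the same difference was 0.690 points, higher in 5 of 10 deciles.

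**Figure D3:**
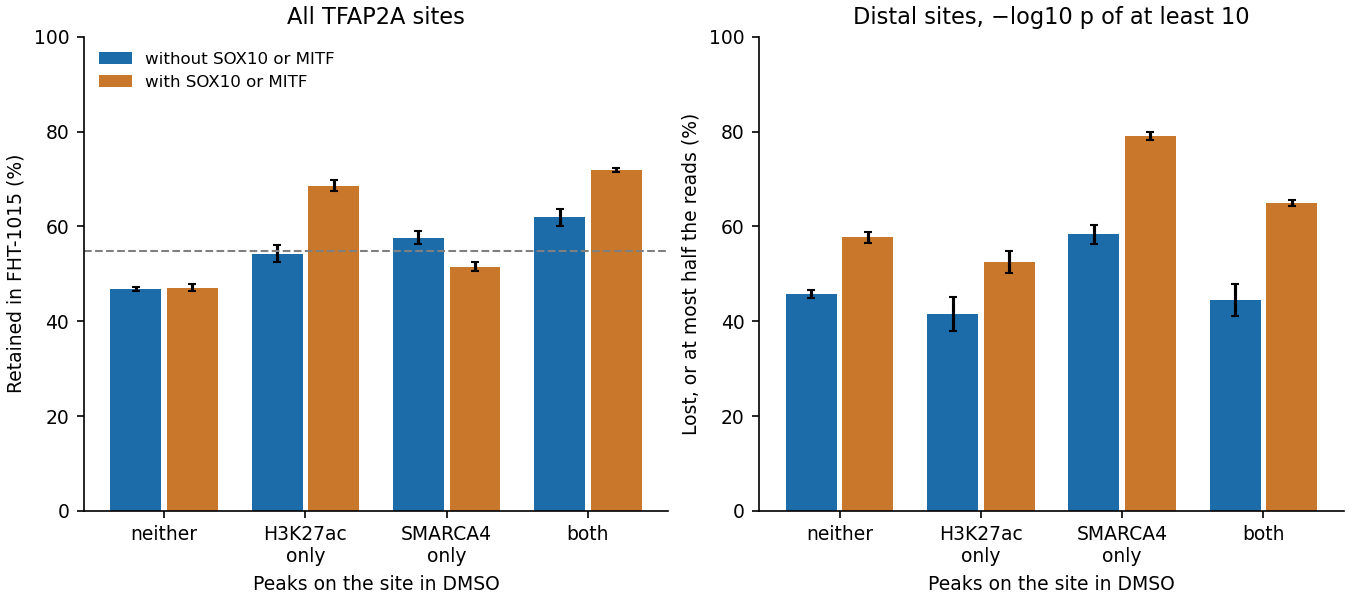
Left, percentage of all TFAP2A sites retained in FHT-1015; right, percentage of distal sites with a −log10 p of at least 10 that were lost or kept at most 50% of their reads per depth. The horizontal axis gives the peaks on the site in DMSO, colours separate TFAP2A-only sites from TFAP2A peaks with SOX10 or MITF, bars carry 95% Wilson intervals, and the dashed line is the 54.9% of all TFAP2A peaks. On the right the SMARCA4-only class is highest in both sets, 58.3% and 79.1%.

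SMARCA4 and H3K27ac themselves were kept less often at TFAP2A-only sites than at the other TFAP2A peaks. Of the 8205 TFAP2A-only sites with SMARCA4 in DMSO, 46.3% (45.2 to 47.4) had a SMARCA4 peak in FHT-1015, against 66.5% over all TFAP2A peaks with SMARCA4 and 70.0% at those with SOX10 or MITF. Of the 5895 with H3K27ac, 55.6% (54.3 to 56.9) kept it, against 76.8% over all TFAP2A peaks with H3K27ac and 79.9% at those with SOX10 or MITF. The SMARCA4 peaks concerned were weaker at TFAP2A-only sites, with a median −log10 p of 4.90 against 8.28, as were the H3K27ac peaks, 18.4 against 38.0. Within deciles of the strength of the SMARCA4 or H3K27ac peak, the gaps of -23.8 and -24.3 points came to -9.59 (lower in 7 of 10 deciles) and -14.9 (lower in 10 of 10). For sites with no SOX10 or MITF peak within 1 kb the SMARCA4 share was 30.0%.

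Each was kept more often where the other was also present. SMARCA4 was kept at 69.4% of the sites that also had H3K27ac and at 33.4% of those that had SMARCA4 only. H3K27ac was kept at 64.6% of the sites that also had SMARCA4 and at 46.7% of those that had H3K27ac only. These shares were not compared at like strength of the SMARCA4 or H3K27ac peak. Promoters made up 31.8% of the sites with both, against 16.4% with SMARCA4 only and 18.7% with H3K27ac only, and their part was not tested. Among the 3041 retained TFAP2A sites of the SMARCA4-only class, 56.5% carried neither in FHT-1015 and 37.9% stayed SMARCA4 only. Among the 1813 retained sites with both, 60.5% still had both and 254 sites had neither. Of the 29533 retained sites with neither, 93.3% still had neither.

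Gains were few. A SMARCA4 peak appeared in FHT-1015 on 5.65% of the TFAP2A-only sites that lacked one, with 8.93% over all TFAP2A peaks that lacked one. For H3K27ac the share was 1.15%, with 2.69% over all. SOX10 was called in FHT-1015 on 1.18% of the TFAP2A-only sites, close to the 1.23% over all TFAP2A peaks without it, and MITF on 2.21%, with 3.90% over all.

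**Figure D4:**
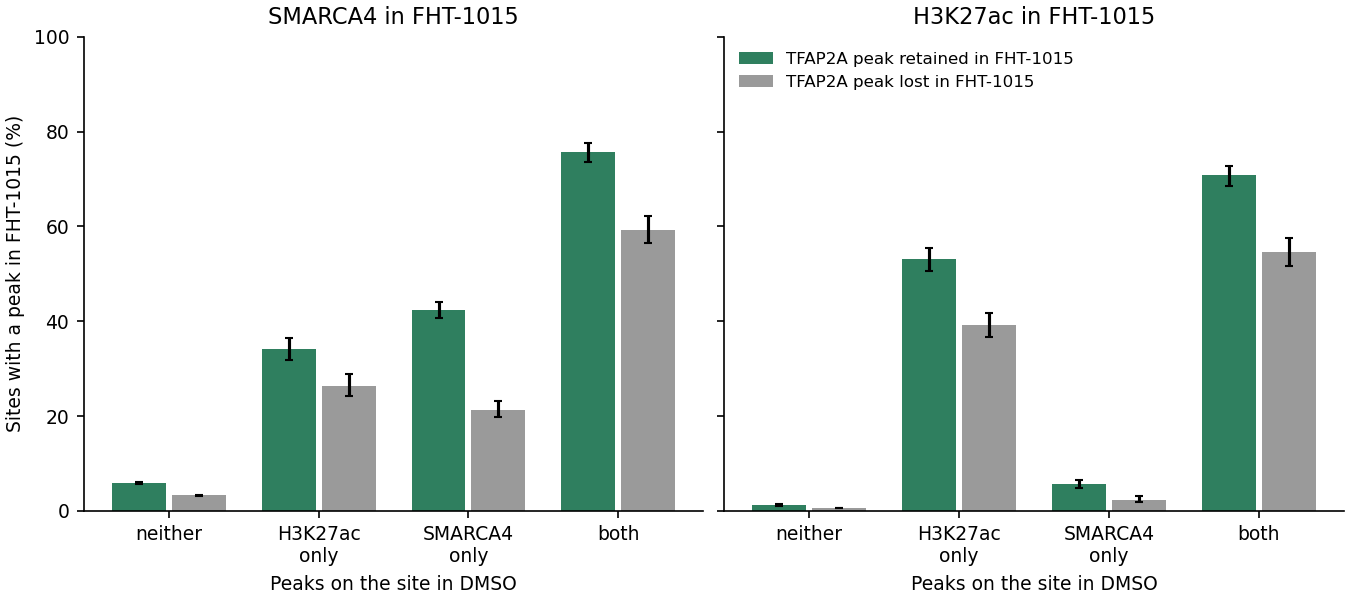
Percentage of TFAP2A-only sites with a SMARCA4 peak (left) or an H3K27ac peak (right) in FHT-1015 (vertical axes), by the peaks on the site in DMSO (horizontal axes), for sites where the TFAP2A peak was retained or lost, with 95% Wilson intervals. Sites with neither in DMSO sit near the floor, and sites with both stand highest for each antibody, 69.4% for SMARCA4 and 64.6% for H3K27ac over retained and lost sites.

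When the same rule was applied to the FHT-1015 lists, 92467 of 118942 TFAP2A peaks (77.7%) had no SOX10 or MITF. The SOX10 list itself was shorter in FHT-1015, 33268 peaks against 103379, so the rule admits more sites there. Of the 92467, 36.4% lay over a DMSO TFAP2A-only site, 22.6% over another DMSO TFAP2A peak only and 41.0% over none. Both SMARCA4 and H3K27ac were on 9.40% of the 92467, SMARCA4 only on 9.01%, H3K27ac only on 3.72% and neither on 77.9%. The same shares over all 118942 FHT-1015 TFAP2A peaks are not given here. Whether these shares differ from those of the full FHT-1015 list was not tested.

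Retention was highest at promoters. Promoter sites lay within 1 kb of a start of a protein-coding gene. For the 4213 genes with no annotated start, either boundary was used, so some lie at gene ends. Promoter sites were 6.58% of the TFAP2A-only sites (4887) and were retained in 72.3% (71.0 to 73.5). The 36596 in gene bodies were retained in 50.4% (49.8 to 50.9) and the 32740 between genes in 42.8% (42.3 to 43.4), while 31 lay on sequences with no annotated gene. Distal sites, which are all but the first of these, were retained less often than promoter sites. The difference, distal minus promoter, was -25.5 points (-26.8 to -24.1), -22.8 at like strength with distal sites lower in 10 of 10 deciles, and -15.5 where summits had to lie within 200 bp. Promoters made up 31.8% of the sites with both, 18.7% with H3K27ac only, 16.4% with SMARCA4 only and 4.02% with neither. TFAP2A peaks with SOX10 or MITF lay at promoters more often, 15070 of 68413, and were retained there in 92.3%.

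Retention also varied along the karyotype. It was highest on chromosome 19 (70.5%, 68.8 to 72.2), followed by chromosomes 22 (62.8%), 16 (59.3%) and 17 (59.1%), and lowest on the X chromosome (33.9%, 31.8 to 36.1), 2 (40.3%) and 4 (40.6%). At distal sites alone chromosome 19 stood at 69.1% and X at 31.4%. Chromosome 19 also had the highest share of promoter sites, 15.0% of its members, and the median strength there was 6.44 against 5.94 on X. The other TFAP2A peaks had the same ends, 82.5% on chromosome 19 and 54.9% on X.

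**Figure D5:**
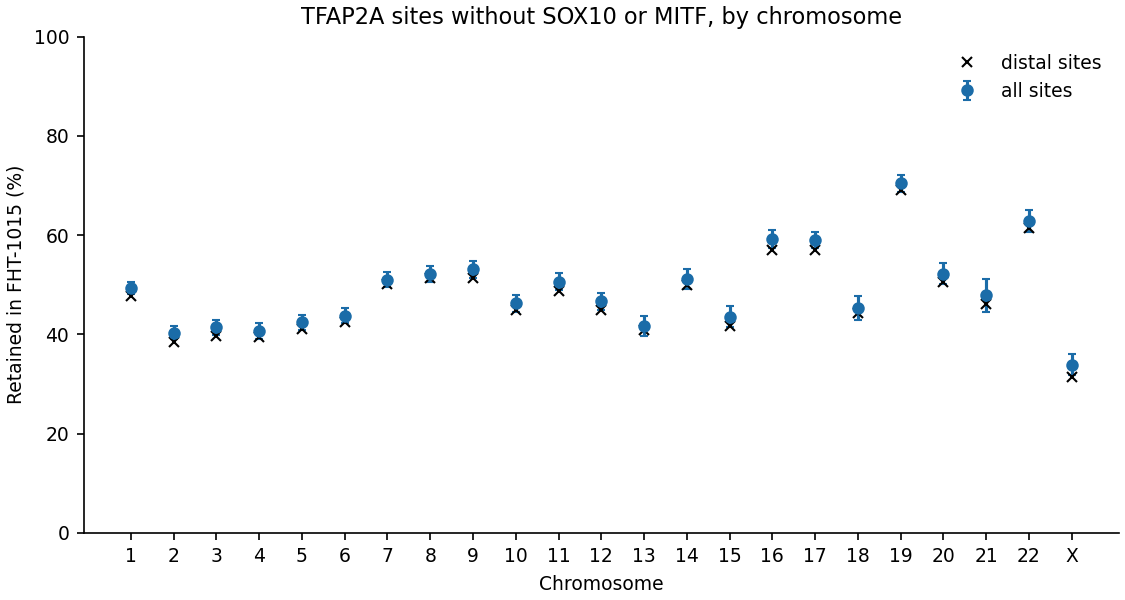
Percentage of TFAP2A-only sites retained in FHT-1015 (vertical axis) by chromosome (horizontal axis), circles for all sites with 95% Wilson intervals and crosses for distal sites. Chromosome 19 lies highest at 70.5% and X lowest at 33.9%, with distal sites close to the value of all sites.

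The strongest sites of each class show how far retained sites differ. Among sites with neither SMARCA4 nor H3K27ac, the one with the highest −log10 p lay in the body of PRDM11, which encodes a PR-domain protein, at chr11:45105412-45106373. It had 220 summit reads in DMSO and 216 in FHT-1015, with no SMARCA4, H3K27ac, SOX10 or MITF peak in FHT-1015. It was nearly level in the 2 libraries. The strongest lost ones in this class were at chr2:25692024-25692428 18661 bp from DTNB, with 90 reads in DMSO, and at chr2:104759503-104759868, with 81 reads. The nearest gene of the latter was POU3F3, a neural transcription factor gene, 93593 bp away.

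With H3K27ac only, the strongest site lay in OCA2, a melanosome membrane protein gene of pigment cells, at chr15:28095645-28096691, and went from 109 to 54 reads, with no H3K27ac peak in FHT-1015. The second lay in SS18L1, a gene of a neuronal BAF subunit, at chr20:62155441-62156247, and went from 117 to 53 reads, with SMARCA4 called only in FHT-1015. Each kept a peak at about 50% of its reads. In CPNE5, a calcium-binding copine, a site of 110 reads was lost, and in MXRA7 one of 79.

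With SMARCA4 only, the 2 strongest retained sites kept few of their reads. The site in LMLN, a metallopeptidase gene, at chr3:198030654-198031220, went from 129 to 38. The site at chr11:134476378-134476905 went from 113 to 12, and its nearest gene, 64406 bp away, was B3GAT1, whose enzyme makes the HNK-1 sugar epitope of neural crest cells. Neither had a SMARCA4 peak in FHT-1015. A site in PSAP, the precursor of lysosomal saposins, held 130 reads in DMSO and no peak in FHT-1015, as did one of 83 reads on chromosome 8 1130 bp from the uncharacterised gene LOC124901993, where SMARCA4 was still called.

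With both, the strongest site was at the start of MSX1, a homeobox factor of the neural crest border, at chr4:4859262-4860182, whose sequence is given above. It went from 111 to 79 reads and kept SMARCA4 but not H3K27ac. The second, in MIDEAS, a gene of a histone deacetylase complex, at chr14:73749830-73750782, went from 142 to 29 reads and also kept SMARCA4. Lost sites with both lay 59145 bp from SEMA4F, a semaphorin gene, with 118 reads, and in EXT1, a heparan sulfate polymerase gene, with 105. Neither the SEMA4F nor the EXT1 site had a SMARCA4 or an H3K27ac peak in FHT-1015.

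By gene, 40145 TFAP2A-only sites (54.1%) lay inside a protein-coding gene, in 11377 of 20056 genes, at 3.18 per 100 kb of gene. The genes with most sites were large. In the 10 with most, TFAP2A-only sites were 58.8% (KAZN) to 92.6% (RBFOX3) of the TFAP2A peaks, beside 74254 of 142667 over all. The retained counts below stand beside the 48.5% of all TFAP2A-only sites. GSE1, a gene of a histone deacetylase complex, held 77, of which 55 were retained. MAD1L1, a spindle checkpoint gene, had 34 of 48 retained. At the other end MACROD2, an ADP-ribose hydrolase, had 19 of 64 retained, and KAZN, a desmosome-associated protein gene, 16 of 50. Between them were KCNQ1, a potassium channel (25 of 51), RBFOX3, a neuronal splicing factor (30 of 50), ALK, a receptor kinase (20 of 48), CDH23, a cadherin (20 of 46), and HDAC4, a histone deacetylase (20 of 42). HDAC4 had H3K27ac on 13 of its sites, against 0 in KCNQ1, RBFOX3 and CDH23 and 5895 of all 74254 TFAP2A-only sites.

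Around the AP-2 genes themselves, within the gene or 10 kb of it, 12 TFAP2A-only sites were found and 8 were retained. TFAP2A had 3 of its 18 TFAP2A peaks in this set, the strongest at chr6:10423069-10423618, with 24 reads in DMSO and 23 in FHT-1015. TFAP2E had 5, TFAP2D 3 and TFAP2C 1, while TFAP2B had no TFAP2A peak. Cofactors and inhibitors of AP-2 had 29 sites, of which 20 were retained. KCTD15, an inhibitor of AP-2 in neural crest, kept 7 of 8, and the related KCTD1 kept 6 of 9, its strongest going from 39 to 19 reads. CITED1, a coactivator expressed in melanocytes, kept 3 of 3, and CREBBP 3 of 5. EP300 kept neither of its 2 sites, the stronger of which held 53 reads. CITED2 had none.

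Genes described as AP-2 targets had 53 sites, with 24 retained (45.3%). KIT, the receptor that pigment cells need to survive, kept 5 of 5, the strongest at 34 reads in DMSO and 28 in FHT-1015. BCL2, an inhibitor of apoptosis, kept 5 of 10, and 6 of the 10 carried SMARCA4. The estrogen receptor gene ESR1 kept 1 of 8, and F2R, a thrombin receptor, none of 3. At MCAM, an adhesion molecule gene that AP-2 is known to repress in melanoma, the 1 site had 23 reads in DMSO. The FHT-1015 peak over it was wider and had 55 reads at its own summit. The MCAM site carried SMARCA4 in DMSO and not in FHT-1015. Among all retained TFAP2A-only sites, reads per depth at least doubled in 6.22%. ERBB3, a receptor kinase, had 1 of 3 retained, a site in the body of the neighbouring gene PA2G4, at 57 and 27 reads.

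Epithelial genes had 31 sites, 16 retained, with H3K27ac on 1. The cadherin gene CDH1 kept 2 of 4, CLDN4 and CLDN7, both tight junction genes, kept 2 of 2 each, and KRT8 kept 1 of 6. A promoter site where KRT8 and KRT18 overlap counts under both, and went from 26 to 10 reads. DSP, a desmosome gene, lost its 1 site of 51 reads.

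Neural crest transcription factors had 36 sites, 17 retained, and H3K27ac lay on 20 of them, against 5895 of the 74254 TFAP2A-only sites. PAX3, with 8, and SOX10, with 4, held 12 of the 20. All sites of PAX3 carried H3K27ac, and 4 of its 8 were retained. MSX1 kept 2 of 2, and SNAI2, a repressor of the epithelial state, kept 2 of 2, the stronger going from 30 to 54 reads. SOX9, SOX10's relative, kept none of 3. SOX10 itself kept 2 of 6. FOXD3 had none.

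Pigment cell genes had 60 sites, 26 retained. OCA2 had 12 and kept 6, MITF 8 and kept 3, and DCT, a melanin synthesis enzyme gene, 6 and kept 1. TYR kept 1 of 4, and MLPH, a melanosome transport gene, 1 of 5. Within 10 kb of GPR143, a melanosome receptor gene on X, a promoter site in the neighbouring gene SHROOM2 had 51 reads in DMSO and 36 in FHT-1015. SOX10 and SMARCA4 peaks overlapped that site in FHT-1015. A site near MC1R, the melanocortin receptor, at chr16:89925451-89925690 in the body of TUBB3, had 15 reads at its summit in DMSO. The FHT-1015 peak over it, at chr16:89924472-89926536, was wider and had 60 reads at its own summit, and MITF and SMARCA4 peaks overlapped the site in FHT-1015. TYRP1 and MLANA had TFAP2A peaks but none in this set. The 10 housekeeping genes had 16 sites, 8 retained, among them 2 of 2 at ACTB, the stronger at 71 reads in DMSO.

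Over the lists the median gene had 2 to 3 sites and over all protein-coding genes 2. With 12 to 60 sites a list, the intervals of the retained share were over 20 points wide, for example 39.1 to 86.2 for the AP-2 family. They included the 48.5% of all TFAP2A-only sites in every list but the cofactors, at 50.8 to 82.7. That interval includes the 54.9% over all TFAP2A peaks. The intervals take sites of the same gene as separate, and KCTD1 and KCTD15 held 9 and 8 of the 29 cofactor sites. KCTD15 lies on chromosome 19, where 70.5% of TFAP2A-only sites were retained. SOX10, KIT, TFAP2A and CDH1 stood in 2 lists each.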

How the data were processed

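The data were ChIP-seq peak lists, with 1 library per antibody and condition, grouped by the sample titles. Per the submitters' processing notes, BWA, SAMtools, Picard and MACS2 were used with hg38. Their roles, versions and the control are not given in the sources used here. The deposited narrow and broad lists hold, per peak, a fold over background (a ratio), a −log10 p and a −log10 q, and a score. The score deposited by the authors is a truncated multiple of the −log10 p (narrow) or −log10 q (broad) and was not used. The fold and −log10 values are the authors' and served only to describe, rank or filter peaks within a list. The deposited narrow lists also give each summit as an offset. The weakest peaks lie just above a −log10 p of 2, so retention depends on the depth of both libraries.

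Overlaps needed at least 1 shared base. Reads at a summit, x, were recovered by taking p as a Poisson tail over a background λ and the fold as x + 1 over λ + 1. The recovered x was whole within 0.002 for 99.999% of DMSO and 99.997% of FHT-1015 TFAP2A peaks with a −log10 p under 290, and this form was inferred from the values. The median TFAP2A summit held 18 reads in DMSO and 15 in FHT-1015, and the FHT-1015 depth was taken as 0.960 of the DMSO depth. This ratio is not a sequenced depth: it is the lowest background of each list (1.62 and 1.61 reads) per base of its shortest peak (185 and 192 bp). Genes were 20056 protein-coding genes of RefSeq on GRCh38.p14. A promoter site lay within 1 kb of one of 22199 starts of 15843 genes, or of either boundary of the other 4213 genes, and other sites were distal. Deciles are 10 equal parts of the DMSO TFAP2A list by −log10 p. Differences within those with at least 20 sites of each class were averaged, each weighted by the product of the 2 class sizes over their sum.

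The members and gene lists were chosen with earlier results of these data known. Named were the 2 strongest retained and 2 strongest lost sites per class, the 10 genes with most sites, and genes of 7 lists; 1 such site and 1 such gene are not reported here. Alternatives were a −log10 p of at least 10, q under 0.05, a 1 kb exclusion, 50% coverage, summits within 200 bp, deciles and broad lists. Python 3.11.15, numpy 2.4.6, pandas 2.3.3, scipy 1.17.1 and matplotlib 3.10.9 were used, and overlap, read recovery and decile differences were tested on simulated data.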

Additional observations from a re-analysis of the deposited data

How the results depend on the processing

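Of the recomputed values of the comparisons, 35 moved beyond the counting interval (for the number of sites, beyond 1.5 times), 2 reversed and 14 did neither. Among the 14 are site numbers of 71883 with q under 0.05, 60654 with the 1 kb exclusion and 100338 by the MITF list alone. The cause of each move was not tested.

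Above a −log10 p of 10, TFAP2A-only sites numbered 19786, retention was 68.6%, the difference from the other peaks -4.15 points, the SMARCA4 difference 5.25, the distal difference -21.8, SMARCA4 kept 43.7% and H3K27ac kept 53.8%. With 50% of the site covered, retention was 44.7%, its difference -9.73 points and SMARCA4 kept 43.6%. With summits within 200 bp, retention was 44.9%, its difference -10.7 points, and the SMARCA4, H3K27ac and distal differences 6.85, 3.68 and -15.5. With no SOX10 or MITF peak within 1 kb, retention was 47.5%, its difference -14.4, the SMARCA4 difference 9.83, the distal difference -23.8, SMARCA4 kept 30.0% and H3K27ac kept 38.7%. With q under 0.05, H3K27ac kept was 57.0%. Within deciles the difference from the other peaks reversed to 6.05 points, and the SMARCA4, H3K27ac and distal differences were 3.99, 6.99 and -22.8. With broad lists the SMARCA4 difference was 9.37 and SMARCA4 kept 48.5%.

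Other alternatives were chosen after seeing the data. At distal sites within deciles the SMARCA4 difference reversed in sign to -0.790, a small value with no interval taken, and the H3K27ac difference was 2.55. With sites chosen by the MITF list alone, retention was 51.7%, its difference -11.0, the SMARCA4, H3K27ac and distal differences 13.9, 18.4 and -34.3, SMARCA4 kept 55.9% and H3K27ac kept 70.4%. No paired analysis was possible because each antibody and condition had 1 library. Depth sets the precision of each site: the median TFAP2A-only summit held 13 reads.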

Other observations

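The 829 genes with at least 10 TFAP2A-only sites were ranked by sites per length, a ranking chosen after the values were seen that favours short genes by its construction. TSPAN32, a tetraspanin gene on chromosome 11, had 61.8 per 100 kb and FASN, the fatty acid synthase gene on chromosome 17, had 60.3. Over all 74254 TFAP2A-only sites 48.5% were retained and 8205 carried SMARCA4. On chromosome 17, which holds FASN, FSCN2 and SLC16A3, 59.1% were retained. In TTYH3, which encodes a chloride channel family protein, 17 of 17 sites were retained, and 7 of them carried SMARCA4. SLC16A3, a lactate transporter gene, and FSCN2, a retinal fascin gene, each kept 10 of 10, and JAG2, a Notch ligand gene, kept 11 of 12 with no SMARCA4 or H3K27ac on any. Of the 10 densest genes, FSCN2, SLC16A3 and CEP131 had TFAP2A-only sites as all of their TFAP2A peaks.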
